A study of Mus musculus with 9 samples.

Results

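The 7 genes described here are purinergic receptors of microglia together with a related receptor and an enzyme of the cell surface: the P2Y receptors P2ry12, P2ry13 and P2ry6, the P2X channels P2rx4 and P2rx7, the P2Y-like receptor Gpr34 and the ectonucleotidase Entpd1 (CD39). They were taken by symbol from the 31053 genes of the count tables, all 7 were detected in every library, and the rule uses no measured value. The data are single-cell RNA-seq libraries (10x Genomics 3′ chemistry, in which each captured RNA molecule is counted once as a unique molecular identifier, UMI) of live CD11b+ cells sorted from mouse brain. All animals were female C57BL/6 mice of 5 months, and the tissue was whole brain without the cerebellum. Ctrl mice were naive and gave 3 libraries of 1 brain each. D0 mice had eaten a diet with 1200 mg/kg PLX5622, an inhibitor of the CSF1 receptor that depletes microglia, for 14 days, and D2 mice had been returned to control diet for 2 days after the same treatment, with 3 libraries of 2 pooled brains in each of these groups. The cells of D0 are therefore those present at the end of the inhibitor treatment, and those of D2 come from the first days of repopulation.

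Extracellular ATP and ADP leave damaged or active cells and are sensed by microglia through P2Y receptors, which couple to G proteins, and P2X receptors, which are ion channels opened by ATP. P2Y12 directs microglial processes towards ADP and is among the genes that separate microglia from other macrophages, P2Y13 responds to ADP as well, and P2Y6 responds to UDP and is tied to phagocytosis. P2X4 and P2X7 pass cations when ATP binds, P2X7 at high ATP, where it is linked to release of interleukin 1 beta. CD39 degrades extracellular ATP and ADP to AMP, and GPR34 is a receptor for lysophosphatidylserine that belongs to the same receptor family by sequence.

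The members lie on 5 chromosomes (GRCm38, GENCODE vM21 annotation). P2ry12 (3:59216272-59262871) and P2ry13 (3:59207892-59210882) are neighbours on the reverse strand with 5389 bases between them, and both lie within Med12l, which is transcribed from the opposite strand and whose exons overlap those of P2ry12. P2rx7 (5:122643911-122691432) and P2rx4 (5:122707544-122729738) follow each other on the forward strand, 16111 bases apart. P2ry6 is at 7:100937630-100974649 on the reverse strand, Gpr34 at X:13632089-13640858 and Entpd1 at 19:40612366-40741602, both on the forward strand. Gpr34 lies within Cask, again on the opposite strand, with no overlap of exons. Whether the counting used strand was not given in the sources used here, so reads of P2ry12 and Med12l may not be fully separated.

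The 250 bases before the start site are shown for P2ry12 and P2ry13, the pair that changed most, and for P2rx4, the member that moved the opposite way. They are RefSeq sequences of GRCm38.p6, printed 5′ to 3′ on the strand of the gene, at chr3:59262986-59263235 (reverse strand), chr3:59210883-59211132 (reverse strand) and chr5:122707294-122707543 (forward strand). RefSeq promoters were matched for 5 of the 7 members, those other than P2ry6 and Gpr34. Capitals mark matches, on either strand, to the letters GAGGAA or GGAAGT, both forms of the core bound by ETS factors such as the myeloid factor PU.1.
P2ry12: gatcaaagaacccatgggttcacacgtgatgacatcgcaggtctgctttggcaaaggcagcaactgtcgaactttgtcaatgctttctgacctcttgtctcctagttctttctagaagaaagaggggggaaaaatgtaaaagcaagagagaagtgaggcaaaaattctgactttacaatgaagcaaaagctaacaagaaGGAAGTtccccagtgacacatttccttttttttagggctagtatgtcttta
P2ry13: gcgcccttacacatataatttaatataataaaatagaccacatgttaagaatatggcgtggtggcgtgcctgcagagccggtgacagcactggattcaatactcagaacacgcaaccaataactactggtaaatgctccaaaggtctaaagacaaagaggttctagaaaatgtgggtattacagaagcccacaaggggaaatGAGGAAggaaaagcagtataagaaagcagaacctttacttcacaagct
P2rx4: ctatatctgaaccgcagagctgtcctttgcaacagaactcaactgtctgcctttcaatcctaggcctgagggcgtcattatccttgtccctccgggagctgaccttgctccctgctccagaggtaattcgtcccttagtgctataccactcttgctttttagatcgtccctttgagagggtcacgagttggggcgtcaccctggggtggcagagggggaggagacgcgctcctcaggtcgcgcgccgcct
P2ry12 held 1 match to GGAAGT and P2ry13 held 1 match to GAGGAA, while P2rx4 held neither. The first motif was present in 19.7% and the second in 23.3% of 32851 promoters of the same length. No match to TGANTCA, the AP-1 motif (6.75% of promoters), was found in these 3 windows. Among the windows not printed, start site 2 of Entpd1 held 2 matches to GAGGAA, and Entpd1 passed the test in neither D0 nor D2 against Ctrl. P2rx7, which passed in neither as well, held 1 match to TGANTCA at start site 1. The other start sites of Entpd1 and P2rx7 held no match. Any link of these motifs to the changes was not tested.

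The 9 libraries held 36391 cell barcodes, of which 142 sequences occurred in more than 1 library, and 20257894 to 61230741 UMIs each. After filtering, the median cell held 4810 to 9243 UMIs. The third D2 library stood apart: 37.3% of its barcodes exceeded the limit of 20000 UMIs, 544 of its cells were monocyte-like, and only 62 non-dividing microglia-like cells remained, against 1169 to 3349 in the other 8 libraries. It was left out of the main comparisons, as in the study, and its values are given beside them. Cells were grouped without use of the members, and microglia-like cells were named from 9 other genes, all 9 of which were detected in every group. Their summed level in non-dividing cells was 25817 to 30155 CPM (UMIs of a gene per 1000000 UMIs of the cells summed) in the Ctrl libraries, against 20512 to 22037 CPM in those of D0 and 17293 to 18380 CPM in those of D2. Ctrl-1 and every D0 library were counted with Cell Ranger 3.0.2, as were D2-1 and D2-2, while Ctrl-2, Ctrl-3 and D2-3 were counted with 3.1.0, so that the version partly coincides with the groups. Each library came from its own animals.

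The first comparison asked which of the receptors differed in microglia present at the end of CSF1R inhibition. In non-dividing microglia-like cells of D0, P2ry12 and P2ry13 were lower than in Ctrl, at 49.5% and 37.5% of the Ctrl level in the fitted model, whereas the remaining 5 members did not pass the test. Thus 2 of 7 members passed, both lower, beside 9.1% of all 12228 genes tested, of which 2.42% were lower and 6.68% higher (edgeR, quasi-likelihood test on UMIs summed per library, Benjamini-Hochberg adjustment over all genes, adjusted p under 0.05). The second comparison placed D2 against the same 3 Ctrl libraries, so the comparisons are not independent. In D2, P2ry12, P2ry13 and Gpr34 were lower and P2rx4 was higher, that is 4 of 7 members beside 10.9% of all genes, 3 lower beside 4.21% and 1 higher beside 6.68%.

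**Figure D1:**
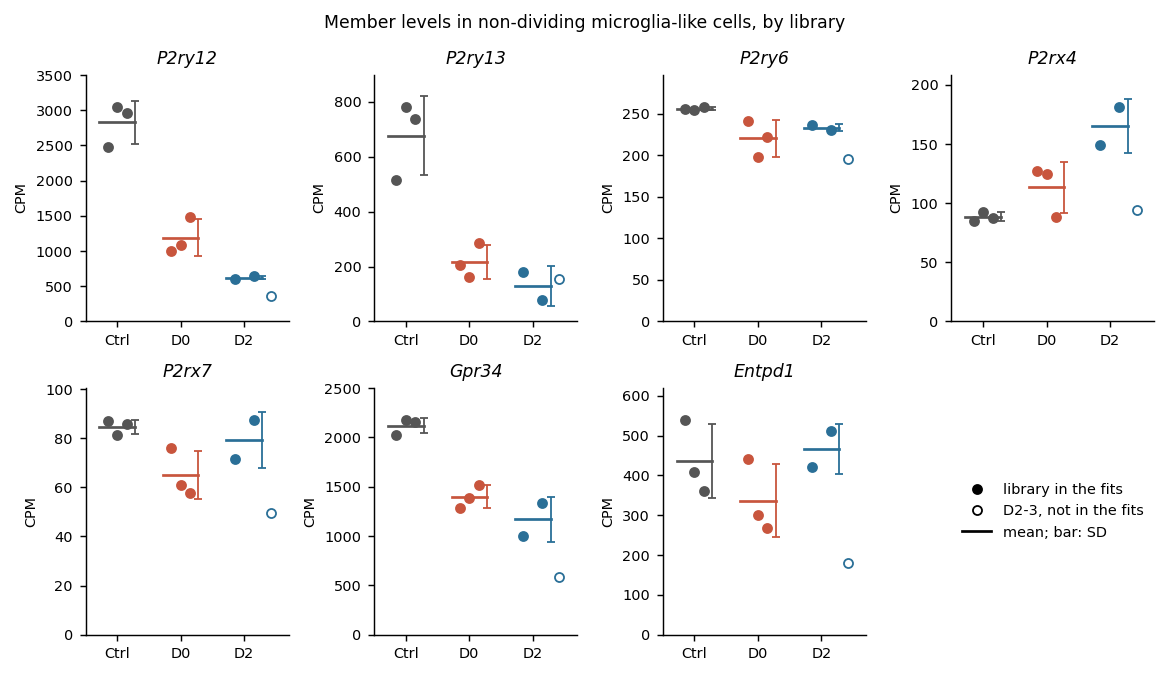
Level of the 7 members in non-dividing microglia-like cells, in CPM, with 1 filled point per library of the fits, the group mean as a line with a bar of 1 SD, and D2-3 as an open point. P2ry12, P2ry13 and Gpr34 lay below Ctrl in every D0 and D2 library, and P2rx4 lay above Ctrl in D2-1 and D2-2.

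P2ry12, the ADP receptor of process movement, stood at 2475, 3050 and 2956 CPM in the Ctrl libraries. The D0 libraries held 999, 1080 and 1487 CPM, D2-1 and D2-2 held 605 and 644 CPM, and D2-3 held 361 CPM. Every D0 library lay below every Ctrl library, and both D2 libraries lay below every D0 library. The group means were 2827 ± 309 CPM (SD, n = 3), 1189 ± 262 (SD, n = 3) and 624 ± 27.5 (SD, n = 2). The fitted log2 fold change of P2ry12 was −1.02 (SE 0.17, adjusted p = 0.00723 in edgeR) in D0 and −2.06 (SE 0.21, adjusted p = 0.000666) in D2. Med12l, on the opposite strand of P2ry12, changed in the same direction, by −1.12 (adjusted p = 0.00732) in D0 and −1.48 (adjusted p = 0.00412) in D2, and the part of shared reads was not tested.

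P2ry13, the other ADP receptor, was at 513, 782 and 736 CPM in Ctrl. Its D0 values were 207, 160 and 284 CPM, and its D2 values were 182 and 78.2 CPM, with 154 CPM in D2-3. No library of the treated groups reached the Ctrl range, while D0 and D2 overlapped. The log2 fold change of P2ry13 was −1.42 (SE 0.32, adjusted p = 0.0234) in D0 and −2.27 (SE 0.38, adjusted p = 0.00603) in D2 by edgeR. The D0 call for P2ry13 was lost when Ctrl-2, Ctrl-3, D0-1 or D0-2 was left out, with adjusted p of 0.0852, 0.0809, 0.0612 and 0.107.

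Gpr34, the lysophosphatidylserine receptor, was at 2028, 2177 and 2159 CPM in Ctrl. Its D0 libraries held 1285, 1388 and 1518 CPM, its D2 libraries 1006 and 1331 CPM, and D2-3 held 590 CPM. Levels of both treated groups lay below all Ctrl libraries and overlapped each other. The log2 fold change of Gpr34 was −0.37 (SE 0.14, adjusted p = 0.143) in D0, where it did not pass, and −0.74 (SE 0.16, adjusted p = 0.0194) in D2. With the replicate number as a block, Gpr34 passed in D0 as well (adjusted p = 0.0387). The D2 call was lost without Ctrl-2, Ctrl-3 or D2-1, with adjusted p of 0.0709, 0.0812 and 0.125.

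P2rx4, the ATP-gated channel found largely in lysosomes, moved the other way. Its Ctrl libraries were close together at 85.3, 92.8 and 87.4 CPM, its D0 libraries held 127, 124 and 88.7 CPM, and its D2 libraries 149 and 182 CPM, with 94.1 CPM from 36 UMIs in D2-3. Both main D2 libraries lay above all D0 and Ctrl libraries, and D0-3 lay within the Ctrl range. The log2 fold change of P2rx4 was 0.59 (SE 0.16, adjusted p = 0.0508) in D0, just short of the threshold, and 1.02 (SE 0.18, adjusted p = 0.00702) in D2. The D0 difference passed with the replicate number as a block (adjusted p = 0.0296). In D2 the call was lost without D2-2 (adjusted p = 0.0587) and with D2-3 included (adjusted p = 0.0633).

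The other 3 members passed in neither comparison. P2ry6, the UDP receptor, was at 256, 254 and 258 CPM in Ctrl, 242, 198 and 222 CPM in D0 and 236 and 230 CPM in D2, with 196 CPM in D2-3. Its CPM lay below Ctrl in every treated library, yet its fitted log2 fold change was 0.02 in D0 (adjusted p = 0.946) and −0.02 in D2 (adjusted p = 0.947). The fit scales libraries to the bulk of genes and not to their totals. P2rx7, the ATP channel linked to interleukin 1 beta, was at 86.9, 81.5 and 85.7 CPM in Ctrl, 76.2, 61.1 and 57.9 in D0 and 71.4 and 87.4 in D2, with 49.6 in D2-3 and fitted changes of −0.15 (adjusted p = 0.518) and 0.03 (adjusted p = 0.925). Entpd1, the ATP-degrading enzyme, was at 539, 410 and 360 CPM in Ctrl, and its D0 values (442, 300 and 269 CPM) and D2 values (422 and 511 CPM) overlapped that range, with changes of −0.14 (adjusted p = 0.697) and 0.23 (adjusted p = 0.539). D2-3 held 180 CPM of Entpd1, and for P2rx7 as for Entpd1 it lay below every Ctrl library.

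**Figure D2:**
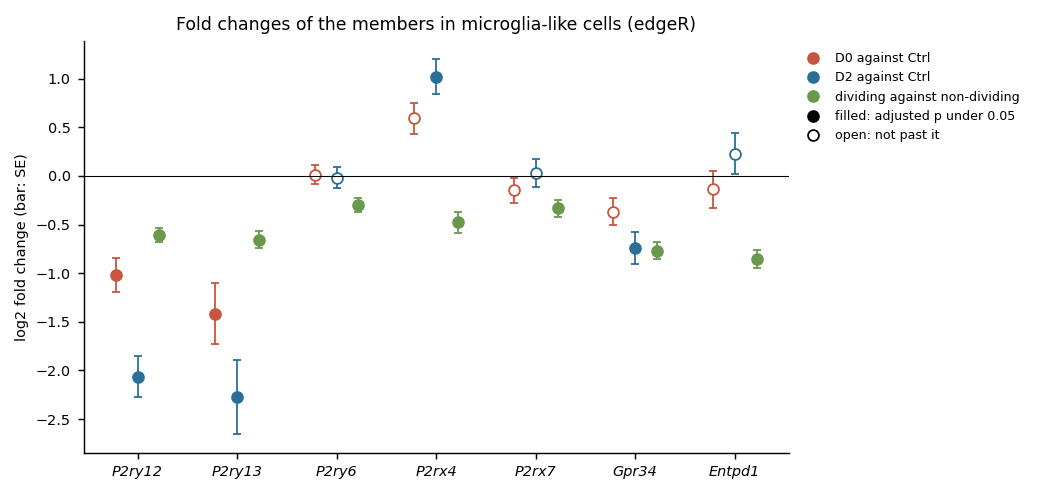
Fitted log2 fold change of each member, as points with bars of 1 SE, for D0 against Ctrl, D2 against Ctrl and dividing against other microglia-like cells, filled where the adjusted p was under 0.05. P2ry12 and P2ry13 had the lowest values in both treated groups, P2rx4 had the highest, and all 7 members were below 0 in dividing cells.

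The groups did not overlap in CPM for 5 members in D0 (P2ry12, P2ry13, P2ry6, P2rx7 and Gpr34), beside 45% of all genes tested, and for 5 in D2 (P2ry12, P2ry13, P2ry6, P2rx4 and Gpr34), beside 46.3%. Scaled to library totals alone, an alternative chosen after seeing the data, the median log2 fold change of all genes was −0.28 and not −0.04 in D0, and −0.13 and not −0.01 in D2, and the D0 calls went from 817 genes higher and 296 lower to 591 higher and 1843 lower. Under that scaling Gpr34 fell in D0 as well (log2 fold change −0.60, adjusted p = 0.0132), while P2ry12 (−1.25, adjusted p = 0.00212) and P2rx4 (0.36, adjusted p = 0.118) kept their sides of the threshold. In the main fits, version 3.1.0 occurred only in Ctrl-2 and Ctrl-3. A term for the counting version takes up these libraries and leaves Ctrl-1 as the only control. Such a fit cannot separate the version from differences among the Ctrl libraries, so only its effect sizes are given. With the term, P2ry12 was at −0.75 and P2ry13 at −0.94 in D0. In D2 under that fit, P2ry12 was at −1.80, P2ry13 at −1.80, Gpr34 at −0.60 and P2rx4 at 1.14. The libraries of version 3.0.2 alone, again with Ctrl-1 as the single control, make nearly the same comparison. There P2ry12 was at −0.73 in D0 and −1.76 in D2, and P2ry13 at −0.92 and −1.76. In the same libraries Gpr34 in D2 was at −0.56 and P2rx4 at 1.18. With D2-3 included in the fit, P2ry12 in D0 (adjusted p = 0.0529) and Gpr34 in D2 (adjusted p = 0.0521) missed the threshold.

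Between D2 and D0 no member passed, and neither did any of the 12228 genes (0% called, 796 genes with an unadjusted p under 0.05 in edgeR, 15 called by DESeq2). P2ry12 had a log2 fold change of −1.05 (SE 0.20, unadjusted p = 0.000454, adjusted p = 0.711), and the other members had adjusted p of 0.711 or more. Only for P2ry12 and P2rx4 did the D2 and D0 groups not overlap in CPM, beside 23.9% of all genes. P2ry12 was called lower by DESeq2 and when no filter on low counts was applied.

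The per-cell counts show how the fall of P2ry12 was spread over cells. After each cell was thinned to 2000 UMIs, which left out 22 to 201 shallower cells per library, the median Ctrl cell held 5, 6 and 6 UMIs of P2ry12 in the 3 libraries. The median D0 cell held 2, 2 and 3 UMIs, and the median D2 cell held 1 in both libraries. The 10% of cells with the fewest held at most 2 or 3 UMIs in Ctrl, at most 0 or 1 in D0 and 0 in D2. Cells with at least 1 UMI of P2ry12 made up 98.1%, 99.3% and 99.1% of Ctrl cells, 82.6%, 83.6% and 90.5% of D0 cells, and 67.1% and 68.9% of D2 cells, so most cells of every main library still held the transcript. Without thinning no Ctrl library held under 97.3%, no D0 library under 95.9% and no main D2 library under 88.7%. In endothelial-like cells, which should lack the gene, 2.02% to 12.9% of thinned cells held a UMI.

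**Figure D3:**
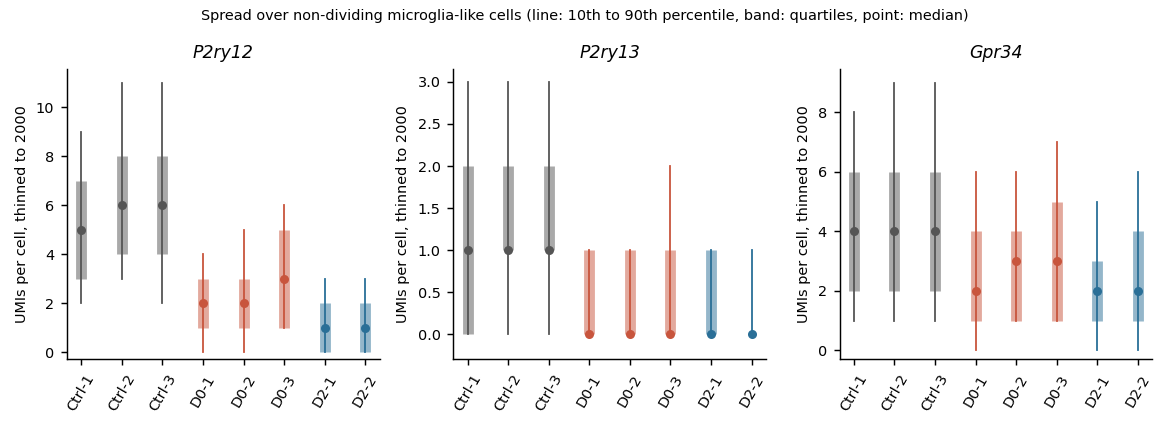
UMIs of P2ry12, P2ry13 and Gpr34 per non-dividing microglia-like cell after thinning to 2000 UMIs, for each library, with the median as a point, the quartiles as a band and the 10th to 90th percentile as a line. The P2ry12 median is 5 or 6 in Ctrl, 2 or 3 in D0 and 1 in D2.

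P2ry13 was present in 63.3%, 77.5% and 76.1% of thinned Ctrl cells, in 34.8%, 27.4% and 45.0% of D0 cells and in 27.5% and 15.8% of D2 cells. Gpr34 was found in at least 95.0% of Ctrl cells, in at most 90.2% of D0 cells and in 82.2% and 88.3% of D2 cells. For P2rx4 no Ctrl library exceeded 15.9%, the D0 libraries lay between 19.5% and 22.2%, and D2-1 and D2-2 held 26.1% and 27.6%. The two-sided exact permutation test over libraries cannot go below p = 0.1 for D0 or 0.2 for D2, and its lowest adjusted value over the 14 comparisons of shares was 0.255.

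Members were also compared within the clusters that make up the microglia-like cells, drawn without the members. Ctrl and treated cells lay largely in different clusters: cluster 4 held 1789, 282 and 373 cells of the Ctrl libraries and 64, 24 and 95 of D0, whereas cluster 1 held 103, 50 and 113 cells of Ctrl and 719, 1405 and 271 of D0. Of 8 clusters with enough cells in Ctrl and D0, P2ry12 was lower in D0 in 8 (log2 fold change −0.98 to −0.50) and passed in 1, a cluster led by the interferon-response genes Ifit3 and Isg15. P2ry13 was lower in 8 of 8 (−1.35 to −0.64) and passed in 4, beside 0.589% of gene tests called over all clusters. Within each of these 8 clusters P2ry12 and P2ry13 thus differed by less in D0 than over all cells (−1.02 and −1.42). Cluster 2 could not be tested, since it held 181, 7 and 10 cells of the Ctrl libraries. It held 1217, 393 and 68 cells of D0 and 620 in each of D2-1 and D2-2. Gpr34, lower in 8 of 8 (−0.32 to −0.01), passed in 0. In D2, 3 clusters could be tested, and P2ry12 (−1.86 to −1.62) and P2ry13 (−2.45 to −2.38) passed in all 3, beside 2.66% of gene tests. Over all cells their D2 changes were −2.06 (SE 0.21) and −2.27 (SE 0.38). The SE within the 3 clusters was 0.20 to 0.21 for P2ry12 and 0.25 to 0.31 for P2ry13. Whether the changes within clusters differ from those over all cells was not tested. Cluster 9, with 811 cells of D2-1 and 2 of D2-2, could not be tested in D2. P2rx4 passed in 2 of these 3 clusters (0.87 to 1.36) and Gpr34 in 1.

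The next comparison set dividing against other microglia-like cells. A cell was taken as dividing when it held UMIs of at least 2 of 8 mitotic genes, none of them a member. Ctrl libraries held only 5 to 13 such cells, so the test used the 3 D0 and 2 main D2 libraries, with 251 to 804 dividing cells each and the library as a block. All 7 members were lower in dividing cells, beside 22.2% of the 11141 genes tested that were called lower. The median log2 fold change of the members was −0.61, beside −0.04 for all genes.

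**Figure D4:**
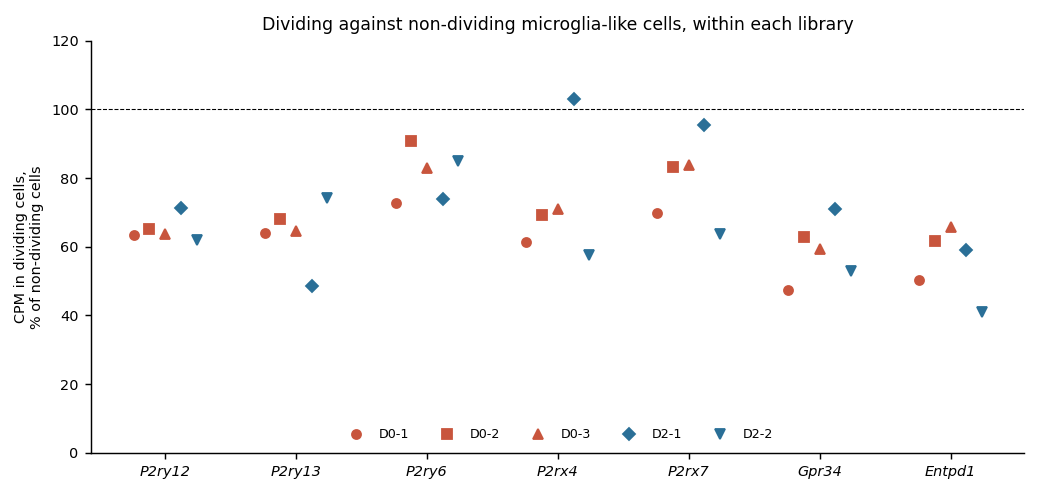
CPM of each member in dividing microglia-like cells as a percent of that in non-dividing cells of the same library, with 1 point per D0 or D2 library and a dashed line at equal levels. Every point lies below the line except P2rx4 in D2-1, at 103%.

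Entpd1 had the lowest ratio. In D0 it was at 222, 185 and 176 CPM in dividing cells against 442, 300 and 269 in the others, and in D2 at 249 and 210 against 422 and 511, which gave a log2 fold change of −0.86 (SE 0.09, adjusted p = 1.85e-05 in edgeR). Dividing cells were lower in all 5 libraries, at 41.0% to 65.6% of the other cells. Gpr34 followed at −0.77 (SE 0.09, adjusted p = 3.3e-05), with 611, 872 and 900 CPM in dividing D0 cells and 715 and 705 CPM in dividing D2 cells.

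P2ry13 was at 133, 109 and 183 CPM in dividing D0 cells and 88.1 and 57.9 in dividing D2 cells, a log2 fold change of −0.66 (SE 0.09, adjusted p = 0.000129). P2ry12 was at 635, 705 and 947 CPM in dividing D0 cells and 432 and 399 in dividing D2 cells, a change of −0.61 (SE 0.07, adjusted p = 3.48e-05). For these ADP receptors the dividing cells were thus lower in 5 of 5 libraries. The few dividing Ctrl cells held 1755, 3179 and 1926 CPM of P2ry12, all above every treated library.

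P2rx4 (−0.48, adjusted p = 0.00522), P2rx7 (−0.33, adjusted p = 0.0119) and P2ry6 (−0.30, adjusted p = 0.00638) had smaller differences. P2rx4 was lower in 4 of 5 libraries and level in D2-1, where dividing cells held 153 CPM and other cells 149 CPM. P2rx7 was no longer called without D2-2 (adjusted p = 0.0595) or with dividing cells defined by at least 4 of the 8 mitotic genes (adjusted p = 0.0617). In D2-3, with 583 dividing cells, all 7 members were again lower in dividing than in other cells, for example P2ry12 at 195 against 361 CPM and Entpd1 at 69.7 against 180 CPM.

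CPM values are shares of a cell's UMIs, and dividing cells held 1.23 to 1.54 times the UMIs of other cells in the same library. A definition by UMIs of mitotic genes favours cells with more UMIs, and its part in this ratio was not tested. The upper limit on UMIs also left out a larger part of the dividing than of the other cells. Without the limit, D0-3 held 816 dividing cells and not 395, and 1659 other cells and not 1365. In D2-1 the change was small, from 480 to 494 dividing and from 2514 to 2557 other cells. The ratios per cell cover kept cells only and may thus be too low, which was not tested. Counted per kept cell, P2ry12 was at 0.805 to 0.979 and P2ry13 at 0.598 to 0.988 times the other cells. Gpr34 was at 0.690 to 0.876 and Entpd1 at 0.534 to 0.829 times, and each of these genes had fewer UMIs in 5 of 5 libraries. P2ry6 (0.910 to 1.20 times) and P2rx7 (0.830 to 1.18 times) had more UMIs per dividing cell in 4 of 5 libraries, and P2rx4 in 1 of 5. For P2ry6 and P2rx7, the lower share thus came with more UMIs per cell in those 4 libraries. The difference between dividing and other cells did not pass as different between D2 and D0 for any member or any of the 11141 genes in edgeR (0% called, 719 genes at an unadjusted p under 0.05). Its estimates for the members ran from −0.16 for Entpd1 to 0.30 for P2rx4.

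Levels were then compared across the cell types of the sort, each named from its markers, dividing cells included, and taken in libraries with at least 20 of its cells. P2ry12, P2ry13, Gpr34 and Entpd1 had their highest mean in microglia-like cells, whereas P2ry6, P2rx4 and P2rx7 had it in border-associated macrophage-like cells, the macrophages of meninges and vessels. The order is one of CPM within a gene, and levels are not compared between genes. Each mean rests on the libraries that held enough cells of that type, which differ between types. Some neighbours did not keep their order within libraries: for P2ry12, monocyte-like cells lay above dendritic-like cells in 0 of 6 shared libraries and mural-like above endothelial-like cells in 3 of 6, and for Entpd1 neutrophil-like lay above border-associated macrophage-like cells in 2 of 4.

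**Figure D5:**
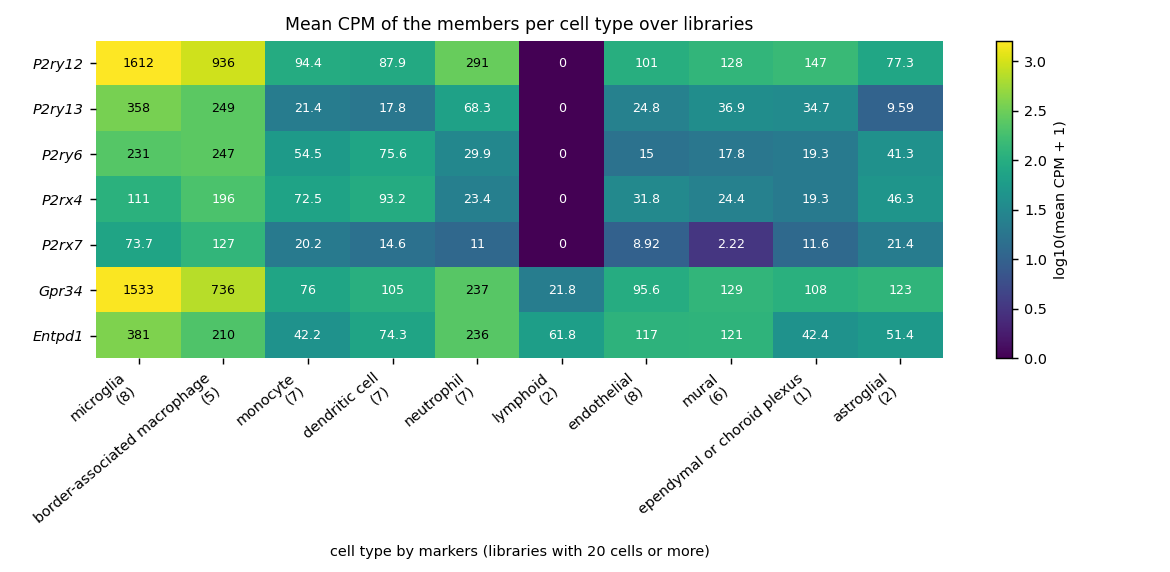
Mean CPM of each member (rows) in each cell type (columns, with the number of libraries in brackets), printed in the cell and coloured by log10(mean CPM + 1). Microglia-like and border-associated macrophage-like cells hold the highest values of the 6 receptors, and Entpd1 also reaches 236 CPM in neutrophil-like cells.

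P2ry12 averaged 1612 CPM in microglia-like cells (n = 8 libraries, all groups) and 936 in border-associated macrophage-like cells (n = 5), and 291 in neutrophil-like (n = 7), 128 in mural-like (n = 6), 101 in endothelial-like (n = 8), 94.4 in monocyte-like and 87.9 CPM in dendritic-like cells (n = 7 each). P2ry13 ran from 358 CPM in microglia-like and 249 in border-associated macrophage-like cells to 68.3 in neutrophil-like, 36.9 in mural-like, 24.8 in endothelial-like, 21.4 in monocyte-like and 17.8 CPM in dendritic-like cells. Gpr34 had 1533 CPM in microglia-like, 736 in border-associated macrophage-like, 237 in neutrophil-like, 129 in mural-like, 105 in dendritic-like, 95.6 in endothelial-like and 76.0 CPM in monocyte-like cells. Free RNA can give low levels in any droplet, and 5 other microglial genes (Tmem119, Siglech, Olfml3, Fcrls and Sall1) served as its yardstick. Their median level, as a percent of that in microglia-like cells, was 3.13% in monocyte-like, 6.57% in dendritic-like, 6.74% in endothelial-like, 5.95% in mural-like and 8.99% in neutrophil-like cells. P2ry12 and Gpr34 exceeded all 5 yardstick genes in 0 of 7 libraries in monocyte-like and dendritic-like cells and in at most 1 library in endothelial-like, mural-like and neutrophil-like cells. In neutrophil-like cells P2ry12 reached 1002 CPM in Ctrl-2 and 541 CPM in Ctrl-3, and the parts of free RNA and of doublets in these levels were not tested.

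Entpd1, the enzyme, was also found outside the macrophages. It was at 381 CPM in microglia-like, 236 in neutrophil-like, 210 in border-associated macrophage-like, 121 in mural-like, 117 in endothelial-like, 74.3 in dendritic-like and 42.2 CPM in monocyte-like cells. It exceeded all 5 yardstick genes in 7 of 7 libraries in neutrophil-like cells (23.2% to 122% of the microglia-like level), in 8 of 8 in endothelial-like cells (20.6% to 44.0%) and in 6 of 6 in mural-like cells. Entpd1 also did so in 6 of 7 libraries in monocyte-like and in dendritic-like cells and in 2 of 2 in lymphoid-like cells. In border-associated macrophage-like cells it did so in 0 of 5. The enzyme is known on vascular endothelium, where it limits platelet activation.

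P2rx4 was at 196 CPM in border-associated macrophage-like, 111 in microglia-like, 93.2 in dendritic-like, 72.5 in monocyte-like, 31.8 in endothelial-like, 24.4 in mural-like and 23.4 CPM in neutrophil-like cells. These means pool the groups. In Ctrl, P2rx4 was higher in dendritic-like than in microglia-like cells in 2 of 2 libraries (89.1 and 112 against 85.2 to 87.1 CPM). Over all groups it was so in 2 of 7. It exceeded the yardstick in 7 of 7 libraries in monocyte-like cells (median 57.4% of the microglia-like level), in 7 of 7 in dendritic-like cells (59.3% to 129%) in 8 of 8 in endothelial-like cells (29.5%), in 5 of 6 in mural-like cells and in 5 of 7 in neutrophil-like cells. P2ry6, at 247 CPM in border-associated macrophage-like and 231 in microglia-like cells, exceeded it in 7 of 7 libraries in monocyte-like (54.5 CPM) and in dendritic-like cells (75.6 CPM). P2rx7 was at 127 CPM in border-associated macrophage-like and 73.7 in microglia-like cells and at 20.2 CPM or less in monocyte-like, dendritic-like, neutrophil-like, endothelial-like and mural-like cells, yet lay above the yardstick in 6 of 7 libraries in monocyte-like and dendritic-like cells. P2ry13 did so in neutrophil-like cells in 4 of 7 libraries. In the 2 main libraries with enough lymphoid-like cells (29 and 25 cells), 5 members had 0 UMIs, which allows up to 23.3 and 18.9 CPM by counting error alone, while Gpr34 and Entpd1 averaged 21.8 and 61.8 CPM.

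Border-associated macrophage-like cells are the nearest relatives of microglia in the sort. Within the same library, P2rx4 was higher in them than in microglia-like cells in 5 of 5 libraries, with 134 to 155 CPM against 85.2 to 92.8 CPM in the Ctrl libraries. P2rx7 was higher in 4 of 5, with 127 to 198 CPM against 81.4 to 86.9 in Ctrl, and P2ry6 in 3 of 5. P2ry12 was lower in 5 of 5, at a median of 37.0% of the microglia-like level. The median yardstick gene was at 43.4% there, with the 5 genes at 32.9% to 80.1%. In monocyte-like cells the median yardstick gene was at 3.13%, and in neutrophil-like cells at 8.99%. The parts of free RNA, of doublets, of microglia in this set and of its own expression were not tested.

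These cells also allowed a comparison of the response, with at least 10 cells per library, a limit lowered after seeing the data because only 1 D0 library held 20. P2ry12 in border-associated macrophage-like cells was at 914, 1765 and 1807 CPM in Ctrl, 94.0 and 581 in the 2 D0 libraries with enough cells and 97.2 and 99.3 in D2. The D0 values rest on 42 and 76 UMIs from 72 and 12 cells, and the D2 values on 8 and 16 UMIs from 13 and 20 cells. P2rx4 was at 149, 155 and 134 CPM in Ctrl, 244 and 122 in D0 and 304 and 298 in D2. The change from Ctrl differed between the cell types for 0 of 7 members in D0, beside 2.12% of 11466 genes, and for 0 of 7 in D2, beside 0.375%. The yardstick genes stood at 32.9% to 80.1% of the microglia-like level in this set. Microglial RNA may thus be part of its values, in a share that may differ by library and was not tested. The nearest to the threshold were P2ry13 (difference of log2 fold changes −1.51, adjusted p = 0.0508 in edgeR) and P2ry6 (−1.16, adjusted p = 0.0526), both in D0. In D2, P2ry12 had a difference of −1.91 with an adjusted p of 0.170.

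Across the 53 sums of a cell type in a library, the genes whose log2 CPM was most like that of P2ry12 by Pearson's r, among 7186 genes, were P2ry13 (0.961), Gpr34 (0.958) and Tmem119 (0.950). P2ry13 was most like P2ry12, Slc2a5 (0.953) and Gpr34 (0.933), and the genes most like Gpr34 included Siglech (0.965) and P2ry12. The most like P2ry6 was Ctss (0.958), the most like P2rx7 Slc9a9 (0.929), the most like P2rx4 Erp29 (0.888) and the most like Entpd1 Mgat4a (0.845). The least alike members were P2rx4 and Entpd1 (0.210). The sums share libraries and free RNA, and these values are descriptions.

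Of 40 other genes of purinergic and lysophosphatidylserine signalling, 24 could be tested between conditions, and 2 rose and 1 fell in D0, while 3 rose and 4 fell in D2, beside the shares of all genes given above (6.68% higher in either group, 2.42% lower in D0 and 4.21% in D2). Their median log2 fold change was 0.11 in D0 and −0.06 in D2, beside −0.15 and −0.02 for the 7 members and −0.04 and −0.01 for all genes. P2ry14, the UDP-glucose receptor gene on the far side of P2ry13 (54273 bases away), rose by 3.25 in D0 (adjusted p = 0.000526) and 3.54 in D2 (adjusted p = 0.000656) on the log2 scale. Its counts were small, with 6, 3 and 5 UMIs in the Ctrl libraries, 33, 41 and 21 in D0 and 40 and 16 in D2. P2ry14 averaged 388 CPM in mural-like cells, whose 7 markers, all detected, summed to between 0.644 and 3.098 CPM in Ctrl microglia-like cells, against 1.21 to 5.56 CPM after the inhibitor, which overlapped, and 3.27 to 4.996 CPM for D2, and their part in the result was not tested. Il1b, the cytokine released downstream of P2X7, rose by 3.04 in D0 (adjusted p = 0.00237) and 2.56 in D2 (adjusted p = 0.0065), with 75.2 to 190 CPM in the Ctrl libraries, 523 to 1297 CPM after the inhibitor and 685 to 809 CPM in the D2 libraries. Neutrophil-like cells held 4924 CPM of Il1b, and the 7 neutrophil markers, all detected, summed to between 5.04 and 14.7 CPM in Ctrl microglia-like cells, against 42.5 to 164 CPM in D0 and 44.4 to 169 CPM in D2, which was likewise not tested.

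P2ry10b, a lysophosphatidylserine receptor, fell in both groups (−0.97, adjusted p = 0.00913, and −1.41, adjusted p = 0.00356). In D2 alone the test was also passed by Enpp1 (0.98, adjusted p = 0.0396), an ATP-cleaving ectoenzyme, by Abhd12 (−0.50, adjusted p = 0.0361), a lysophosphatidylserine lipase, by Slc17a9 (−0.73, adjusted p = 0.048), the vesicular nucleotide transporter, and by Slc29a1 (−1.06, adjusted p = 0.0336), a nucleoside transporter. Whether D0 and D2 differ for these genes was not shown, since no gene passed between them. The potassium channel gene Kcnk13 and the inflammasome genes Nlrp3, Pycard and Casp1 passed in neither comparison.

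In dividing cells, 20 of the 40 genes could be tested, and 7 were higher and 5 lower than in other cells, beside 22.2% of all genes in either direction, with a median log2 fold change of 0.08. The higher ones were the kinase Adk (1.26, adjusted p = 9.8e-06), the deaminase Ada (0.99, adjusted p = 0.00126), the transporter Slc29a1 (0.82, adjusted p = 0.000125), the receptor Adora1 (1.47, adjusted p = 0.0078), P2ry14 (1.00), Gnai2 (0.31) and Il1b (0.36). Some counts were small: Adora1 had 2, 23 and 8 UMIs in dividing D0 cells and 11 and 16 in dividing D2 cells. In D0-1 alone Adora1 was lower in dividing cells (0.871 against 1.37 CPM). In the dividing cells of these libraries P2ry14 had 5 to 31 UMIs and Ada 11 to 41. The lower ones were the receptor Adora3 (−0.40), Abhd12 (−0.40), Slc17a9 (−0.60), Slc29a3 (−0.25) and the potassium channel gene Kcnk13 (−0.37). As a share of UMIs, the direction was thus uniform in the 7 members and mixed in the wider pathway. Counted per kept cell it was not uniform. Dividing cells held more UMIs of P2ry6 and P2rx7 in 4 of 5 libraries and of P2rx4 in 1 of 5. The members were chosen with earlier results of these data known.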

How the data were processed

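The authors sorted live CD11b+ cells, made 9 libraries with the 10x Genomics 3′ kit v3 and counted UMIs with Cell Ranger against mm10; the processing notes name version 3.1.0, while the deposited file headers name 3.0.2 in 6 libraries and 3.1.0 in 3. The deposited values are raw UMI counts per gene and cell.

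A barcode was kept if it held 500 to 20000 UMIs from no fewer than 200 genes, with mitochondrial UMIs at or under 10%. Cells were clustered with scanpy 1.11.5 and leidenalg 0.10.2 (3000 variable genes, 10 principal components, 20 neighbours, resolution 0.6 for the myeloid cells), with the 7 members and 40 further pathway genes left out, and clusters were named from marker lists. Scrublet marked 76 of 30463 cells (0.249%), too few to rely on, so none was removed. UMIs were summed per library and set of cells and tested with edgeR 4.0.16 (TMM, filterByExpr, quasi-likelihood test, all 3 groups in 1 fit without D2-3, R 4.3.3). CPM are summed UMIs scaled to 1000000 per library. Dividing cells held UMIs of at least 2 of 8 mitotic genes. Shares were compared after thinning to 2000 UMIs, by exact permutation with SciPy 1.17.1. The scripts were tested on simulated data.

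The 7 members were reported in full, pathway genes where called, and genes among the 3 most like each member by r of log2(CPM + 10). One gene planned for the free RNA yardstick is not reported here and was left out of it. Members and lists were chosen with earlier results of these data known. Alternatives were DESeq2 1.42.0, other scaling, filters, depth limits, clusterings, definitions of dividing cells, sample sets and blocks, each changed singly. Scaling by totals alone and the limit of 10 cells for border-associated macrophage-like cells were added after seeing the data; with 20 cells that difference could not be tested.

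Libraries share replicate numbers. Between Ctrl and D0, deviations from the group means correlated in every same-numbered pair (r = 0.447, 0.242 and 0.209 over 11959 genes). Of differently numbered pairs, Ctrl-3 with D0-2 was at 0.257, Ctrl-2 with D0-3 at 0.085, and the rest at −0.408 to −0.189. Between D0 and D2, the same-numbered pairs were at −0.192 and 0.302. These values do not settle whether the numbers mark pairs. The value with a block is printed beside a D0 result whose call it changes. The labels give no origin for the numbers.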

Additional observations from a re-analysis of the deposited data

Results flagged for a closer look

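P2rx4 was looked at in cells outside the comparisons. The first were barcodes over the limit of 20000 UMIs that were placed among non-dividing microglia-like cells. In these the lower of the main D2 libraries held 109 CPM of P2rx4. This lay above the 85.8 to 91.9 CPM of such barcodes in the Ctrl libraries, whereas D2-3 held 76.7 CPM. The D0 libraries held 140, 120 and 77.4 CPM, the last below every Ctrl library. The 62 non-dividing microglia-like cells of D2-3, left out of the main fits, held 94.1 CPM of P2rx4, just above the highest Ctrl library (92.8 CPM), and this value rests on 36 UMIs. The 109 and 94.1 CPM were listed because they lay above the control samples in data the comparisons do not use, and neither difference was tested.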

How the results depend on the processing

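P2ry12 kept its sign in 26 of 26 alternatives in both comparisons with Ctrl (log2 fold change -1.25 to -0.73 in D0, called in 23; -2.28 to -1.76 in D2, called in 26). P2ry13 was called in 20 and 24, Gpr34 in 4 and 20 and P2rx4 in 8 and 23 of 26, all with their signs kept. In dividing cells all 7 members kept their sign in 18 of 18. No called difference turned its direction; the uncalled ones of P2ry6, P2rx7 and Entpd1 changed sign in some alternatives. In D0, the 2 members called lower became 0 with a term for the counting version or with version 3.0.2 alone, 1 with D2-3 included and 1 to 2 when a library was left out; members called higher were 1 and not 0 with DESeq2, resolution 1.0, the highest doublet scores removed, no filter on low counts, only the groups compared or the replicate block, and 0 to 1 with a library left out. The 1113 genes called in D0 became 453 with the version term, 131 in version 3.0.2, 501 with D2-3, 2462 with dividing cells included, 697 after thinning, 2434 with totals only and 453 to 1191 with a library left out (lowest without D0-2). In D2, the 3 members lower became 1 with the version term and 1 in version 3.0.2 (2 to 3 with a library left out), the 1 member higher became 0 in version 3.0.2 and with D2-3 (0 to 1), and the 1332 genes became 445, 97, and 2309 with dividing cells (609 to 1980 with a library left out, lowest without D2-2). Between D2 and D0, DESeq2 and no filter called 1 member lower and 15 genes each, against 0. In dividing cells, leaving out the library block reduced 7 members to 4 and 4952 genes to 3279, and thinning reduced them to 3212 (6 to 7 members and 3510 to 5781 genes with a library left out). The number of genes whose dividing difference varied between D2 and D0 was 1 with DESeq2, 14 without the filter, 2 after thinning and 0 to 187 with a library left out (187 without D2-2). With the replicate block, P2rx4 and Gpr34 also passed in D0, and no call for a member in D2 changed. The Ctrl and D2 pairs correlated at 0.0352 and 0.0896. Deviations of only 2 D2 libraries from their mean mirror each other, so these values do not settle whether the numbers mark pairs there. The cause of these changes was not tested. With 2 to 3 libraries a group, a p that misses the threshold does not show equal levels.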

Other observations

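Barcodes over the limit of 20000 UMIs that were placed among non-dividing microglia-like cells also gave levels of P2ry12. They held 2445, 3073 and 2952 CPM in the Ctrl libraries, 910, 938 and 936 CPM in D0 and 588 and 387 CPM in D2-1 and D2-2. Each treated library was again below each Ctrl library, and each D2 library below each D0 library. These barcodes can hold more than 1 cell, and the D0-1 value rests on 12 barcodes.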
